A study of Homo sapiens with 15 samples.

Results

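Of the 15 samples of the series, the 9 from cells that received 5-fluorouracil (5-FU) in some form, which were 5-FU alone, Combi and SARB with 3 samples each, were set against the 6 from cells that received none, which were Control and TQ with 3 samples each. The samples were placed by the treatment named in their labels and no measured value was used to choose them. All samples were HCT116 cells, an established human colorectal cancer line, harvested after 24 h. Control cells are labelled untreated. TQ cells received 40 µM thymoquinone, 5-FU cells received 15 µM 5-fluorouracil, Combi cells received 35 µM of each drug side by side, and SARB cells received 35 µM of a hybrid molecule in which 5-FU and thymoquinone are joined through an ester. The compounds came from stocks in dimethyl sulfoxide per the study's methods. The 5-FU dose therefore differed between 5-FU alone and the other 2 treatments, and thymoquinone was part of 2 of the 3 treatments with 5-FU and of 1 of the 2 groups without it. Every gene was compared as the mean of the 3 treatment groups against the mean of Control and TQ, each group having equal weight, and the same comparison was then made for each treatment.

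5-FU is a pyrimidine analogue whose metabolites block thymidylate synthase and are built into RNA and DNA, and it is the backbone of chemotherapy for colorectal cancer. Lesions made during DNA synthesis stabilise the transcription factor p53, which HCT116 cells carry in its wild-type form, and p53 switches on genes for cell cycle arrest, DNA repair and death receptors, along with MDM2, the ubiquitin ligase that degrades it. Replication-dependent histone genes are transcribed in S phase, while mitotic cyclins accumulate in G2 and M phase, so both classes follow how cells move through the cycle. Thymoquinone is a quinone from Nigella sativa that reacts with thiols, and heat shock and immediate-early genes are known responders to such stress.

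Transcripts were counted with the NanoString nCounter PanCancer Pathways Panel, in which a colour-coded probe pair is counted for each transcript without amplification. The 730 endogenous genes of the panel entered the comparison, and 40 housekeeping genes set the scale. All values below are scaled counts, meaning barcode counts brought to the same geometric mean of the housekeeping genes, and log2 fold changes are relative to those genes. Total counts were 226357 to 607782 in samples with 5-FU and 135017 to 513114 in those without. All 8 measured markers of epithelium and colon lay above the level of the negative probes in every sample, and their sum was 4151 to 6819 with 5-FU and 3256 to 5839 without. Of 6 fibroblast markers 4 lay above that level in no sample. Their sums overlapped, with 42.8 to 113 against 39.5 to 123, and of 8 leukocyte markers only CD40 was above it in all 15. FLT1, the sole endothelial marker measured, was 2.44 to 12.1 against 2.47 to 26.9. Of the epithelial markers CDH1, ITGB4 and LAMB3 were themselves among the genes called higher and AXIN2 among those called lower, so their sum is not independent of the comparison. The names of the scanner files in the labels fall into 3 sets, called runs here, and whether a run is a cartridge or only a scan is not stated. Control replicate 1 and all TQ, 5-FU and SARB samples shared run 1, Control replicates 2 and 3 were with Combi replicate 1 in run 2, and Combi replicates 2 and 3 formed run 3.

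The reference side was itself not uniform. Between TQ and Control, edgeR called 25 genes higher (3.42% of the 730) and 158 lower (21.6%) in TQ, where a call needs a Benjamini-Hochberg adjusted p no higher than 0.05 and levels that differ by 1.5-fold or more. These 183 genes became 86 without TQ replicate 2, 105 without Control replicate 3 and 28 within run 1. TMM normalization, which centres the bulk of all genes in place of the housekeeping genes, changed the balance to 79 higher and 44 lower and moved the median of all genes from -0.47 to -0.02. Of these groups only Control replicate 1 shared a run with TQ. Levels in TQ and in Control are therefore given side by side for the leading genes.

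In the pooled comparison 96 genes were called higher with 5-FU (13.2% of the 730) and 40 lower (5.48%). Over all 730 genes the median was 0.02 on the log2 scale, so the calls stood to both sides of a balanced whole. Genes of p53 signalling, laminin chains and their integrins, urokinase and several secreted factors lay on the higher side, while the histone genes HIST1H3H and HIST1H3B, the mitotic cyclin gene CCNB1, the replication helicase genes MCM5 and MCM7 and NPM1 lay on the lower side. In 53 genes (7.26%) all 9 samples with 5-FU lay above all 6 without, and in 28 genes (3.84%) all 9 lay below. Of the called genes, 48 of the 96 and 18 of the 40 were separated in this way. Run 1 holds no Combi sample and, of Control, only replicate 1, which there weighs as much as all TQ samples together. Within run 1 the log2 fold changes were 3.10 for LAMA3, 2.95 for CDKN1A, -2.37 for HIST1H3B and -3.54 for HIST1H3H. The median of all genes was 0.07 there. With run as a block in the fit, 86 of the 96 and 37 of the 40 were called again. A fit with a separate term for thymoquinone called 87 of the 96 and 33 of the 40. TMM normalization kept 90 of the 96 and all 40. Against Control alone 70 genes were higher and 98 lower, with 60 of the 96 and 29 of the 40 among them, and against TQ alone 122 were higher and 28 lower, with 83 and 25. The median of all genes was -0.26 in the former and 0.38 in the latter. No separate cultures are named in the labels, so the p-values measure the spread between these samples, which may be technical.

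The p53-induced genes were the list with the largest share of calls. Its members were chosen from general knowledge with earlier results of these data known, so this share is a description only. Of 16 measured members, 14 were called higher and none lower, their median log2 fold change was 1.36 against 0.02 over all genes, and the 2 members not called were THBS1 and IGFBP3. The list was 14 of 16 against Control alone and 11 of 16 against TQ alone, with GADD45A, TNFRSF10A and TNFRSF10D not called in the latter. CDKN1A, the cyclin-dependent kinase inhibitor p21, stood at 768, 896 and 1346 scaled counts in the 3 Control samples and at 526, 536 and 496 in TQ. It reached 3842, 4160.3 and 5625 with 5-FU alone, 5847, 6877 and 6598 with Combi and 4199.6, 6021 and 5560.0 with SARB. The lowest sample with 5-FU thus lay far above the highest without, and the 7.42-fold difference was the second of all higher genes (log2 fold change 2.89, standard error 0.13, adjusted p = 5.18e-14). CDKN1A was lower in TQ than in Control (log2 fold change -0.95, adjusted p = 0.000671), where the median of all genes was -0.47. Only Control replicate 1, at 768, shared a run with TQ. The pooled value falls between 2.42 against Control and 3.36 against TQ.

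MDM2 stood at 1679, 1852 and 2062 in Control and 2211, 2106 and 2179 in TQ. With 5-FU it was 7718, 7552 and 7957 with 5-FU alone, 8421, 9365 and 9633 with Combi and 8841, 7678 and 8187 with SARB (log2 fold change 2.06, standard error 0.07, adjusted p = 1.02e-15). Its treated levels lay within a narrow band, and TQ and Control were not called different. SFN, which encodes the G2 checkpoint protein stratifin, had 1205, 1055 and 1250.5 in Control, 1944, 2027 and 2195 in TQ, 8029.8, 8137 and 8746 with 5-FU alone, 6969.9, 7208 and 7032 with Combi and 7774, 7839 and 6427 with SARB (log2 fold change 2.28, standard error 0.07, adjusted p = 5.97e-16). SFN was also higher in TQ than in Control (0.81, adjusted p = 1.07e-05), yet each of the 9 samples with 5-FU exceeded each TQ sample. DDB2, which recognises damaged bases in nucleotide excision repair, went from 508, 378 and 541 in Control and 397, 335 and 310.4 in TQ to 1780.3, 1833 and 1826 with 5-FU alone, 1052, 993 and 1006 with Combi and 1474, 1346 and 1223 with SARB (log2 fold change 1.74, standard error 0.09, adjusted p = 4.74e-13). For DDB2 the 3 treatments did not overlap with each other, 5-FU being highest and Combi lowest, and the test of a difference among them was passed (adjusted p = 0.00021). With run as a block DDB2 no longer passed it, and SARB and 5-FU, which share run 1, were not called different (-0.43, adjusted p = 0.0856).

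Other members of the list had varied dependence on the reference group. EPHA2, a receptor tyrosine kinase, had a log2 fold change of 1.67, and PML, the organiser of nuclear bodies, of 1.07. PCNA, the sliding clamp of DNA polymerases, was 694 ± 78.2 (SD, n = 3) in Control, 427 ± 16.3 in TQ, 897 ± 199 with 5-FU alone, 1141 ± 174 with Combi and 1001 ± 242 with SARB. Its call (0.89) rested on the low TQ level and was lost against Control alone (0.54). GADD45A, a stress sensor that binds PCNA, had a log2 fold change of 0.79, and its SARB samples, at 1162, 860.2 and 1202, reached into the range of TQ at 977, 987 and 799.8. THBS1, an adhesive glycoprotein that restrains angiogenesis, showed the opposite dependence. It was 98.7 ± 13.9 in Control, 418 ± 74.4 in TQ, 244 ± 13.8 with 5-FU alone, 308 ± 41.9 with Combi and 320.1 ± 41.5 with SARB, so its pooled value of 0.51 was not called and turned to -0.52 against TQ alone. IGFBP3, a carrier of insulin-like growth factors, lay between 4.90 to 23.5 without 5-FU and 6.11 to 31.8 with it, near the level of the negative probes, and was not called.

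**Figure D1:**
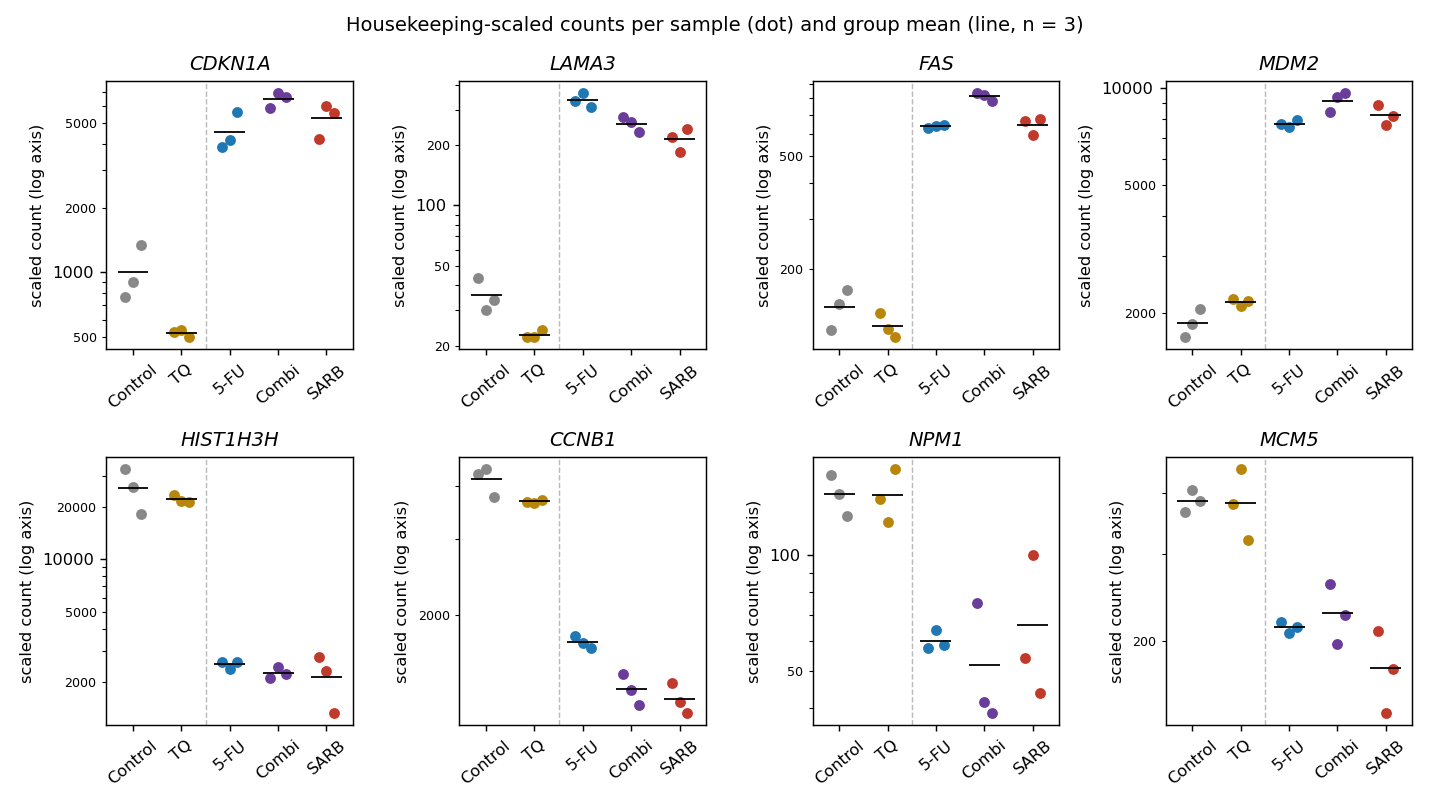
Scaled counts (log y axis, each panel on its own range) of 8 genes in the 15 samples, as dots for single samples and lines for group means of 3, with the groups without 5-FU left of the dashed line. In CDKN1A, LAMA3, FAS and MDM2 every dot right of the line lies above every dot left of it, and in HIST1H3H, CCNB1, NPM1 and MCM5 every dot right of it lies below.

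Death receptor genes formed a clear group within that list. FAS, the receptor of FAS ligand, had 121, 149.7 and 168 scaled counts in Control and 139.5, 122 and 114 in TQ against 629, 639.9 and 645 with 5-FU alone, 834, 819 and 786 with Combi and 666, 593 and 678 with SARB (log2 fold change 2.36, standard error 0.09, adjusted p = 3.65e-15). The 5-FU samples of FAS differed by few counts from each other, and none of the 9 came near the reference samples. TNFRSF10C, a decoy receptor for the death ligand TRAIL, stood at 67.5, 49.9 and 60.5 in Control and 68.5, 77.1 and 83.6 in TQ, and at 493, 420.4 and 419.7 with 5-FU alone, 323, 290.4 and 244 with Combi and 404, 284 and 344 with SARB (log2 fold change 2.38, standard error 0.12, adjusted p = 3.06e-13). TNFRSF10B, the TRAIL receptor that carries a death domain, was 213 to 345 without 5-FU and 449 to 664 with it (0.96), with no overlap. Its partner TNFRSF10A (0.87) and the decoy TNFRSF10D (0.78) were also called. Both were higher in TQ than in Control, by 0.71 and 0.89 on the log2 scale. Against TQ alone their values were 0.52 and 0.34 and no longer called.

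Among the core apoptosis genes, which include caspases and BCL2 relatives, BAX was the only one of 16 called higher and none was lower, with a median of 0.31. With so few genes this count is not far from the 13.2% called higher over the panel. BAX, which forms pores in the outer mitochondrial membrane and is also on the p53-induced list, stood at 572, 723 and 664 in Control and 477, 456 and 505 in TQ. It was 1287, 1339.8 and 1603 with 5-FU alone, 1863, 2293 and 2353 with Combi and 1511, 1947 and 1762 with SARB (log2 fold change 1.64, standard error 0.09, adjusted p = 1.71e-12). All 9 samples lay above the 6, and Combi was highest. In Combi alone 5 of the 16 genes were called higher against the mean of Control and TQ, in 5-FU alone 2 and in SARB 1.

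Laminin, integrin and matrix genes came next in number of calls, with 13 of 42 higher and none lower, beside 13.2% and 5.48% over all genes. Their median was 0.37. Against Control alone 11 were called higher and 5 lower, with a median of -0.07, while the median of all genes there was -0.26. The leading members were called against either reference group. LAMA3, the alpha chain of the laminin that anchors epithelial cells to their basement membrane, had the highest fold change of all 730 genes. It was counted at 43.2, 30.2 and 33.6 in Control and 22.0, 22.2 and 23.9 in TQ, and at 332, 362 and 309.9 with 5-FU alone, 276, 259 and 232 with Combi and 218, 185 and 241 with SARB (log2 fold change 3.22, standard error 0.12, adjusted p = 3.98e-15). That is a 9.29-fold difference, and 5-FU lay above Combi and SARB without overlap. Its log2 fold change was 2.89 against Control alone and 3.54 against TQ alone. LAMB3, the beta chain of the same trimer, had 77.8, 78.6 and 106 in Control, 215, 232 and 167 in TQ, 679, 677 and 610.2 with 5-FU alone, 661, 579.7 and 571 with Combi and 762, 613 and 527 with SARB (log2 fold change 2.23, standard error 0.11, adjusted p = 3.93e-13). Here TQ stood between Control and the treatments with 5-FU, called higher than Control by 1.24. As background, LAMB3 and ITGB4 also served as epithelial markers above.

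Integrin genes of the same adhesions were called as well. ITGA3, an alpha subunit that binds this laminin, was 791 to 1662 in samples without 5-FU and 1972 to 3089.7 in those with it (log2 fold change 1.36, standard error 0.09, adjusted p = 6.65e-11), with no overlap. ITGB4, the beta subunit of hemidesmosomes, had 685, 707 and 1321 in Control, 485, 492 and 426 in TQ, 2097, 1994 and 1954 with 5-FU alone, 2201, 2643 and 2581 with Combi and 1239.8, 995 and 1086 with SARB. Control replicate 3 of ITGB4 exceeded all 3 SARB samples, and the log2 fold change of 0.77 in SARB was well under the 1.63 in 5-FU and 1.93 in Combi. ITGA6 (0.93) and ITGA2 (1.26) completed the integrins called. PLAU, the urokinase that activates plasminogen at the cell surface and a member of no list, stood at 566, 449 and 889 in Control and 541, 494 and 447 in TQ against 2255, 2244 and 2031 with 5-FU alone, 2455, 1618 and 1638 with Combi and 2128, 1649 and 2015 with SARB (log2 fold change 1.84, standard error 0.13, adjusted p = 2.32e-10). Its groups were separated in spite of the spread among Control samples.

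**Figure D2:**
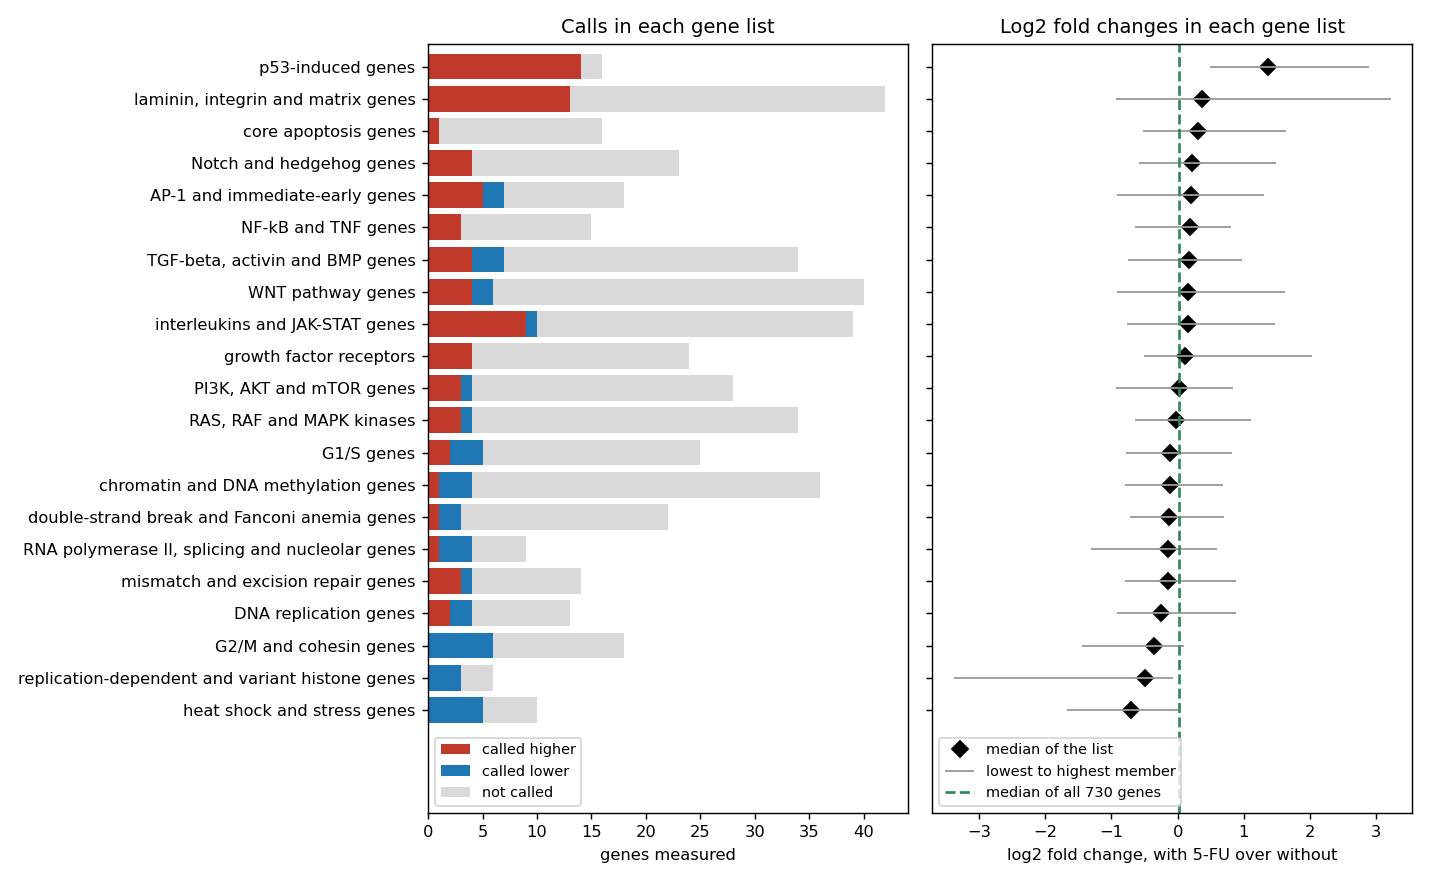
Left, the genes of each list called higher, called lower or not called in the pooled comparison (x axis, number of genes measured). Right, the median log2 fold change of each list (diamond) with the range from its lowest to its highest member, beside that of all 730 genes at 0.02 (dashed line): the p53-induced list stands highest with a median of 1.36 and the heat shock and stress list lowest with -0.70.

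Receptors, cytokines and signalling regulators added smaller groups. Of 24 growth factor receptors 4 were called higher, a share of the size seen over all genes in that direction, and none lower, with 2 and 1 against Control alone and 6 and none against TQ alone. NGFR, the neurotrophin receptor that carries a death domain, stood out with 69.2, 65.0 and 67.2 in Control, 78.3, 74.6 and 58.0 in TQ, 288, 326 and 277 with 5-FU alone, 320.4, 443 and 403 with Combi and 195, 216 and 169.8 with SARB (log2 fold change 2.03, standard error 0.11, adjusted p = 2.33e-12). TQ left NGFR where Control had it, while Combi was highest and SARB lowest of the treatments. EGFR (0.60) lay at the fold limit and was not called against Control alone (0.37) or with run as a block (0.50). Its call was lost after TMM normalization (0.58), within run 1 (0.42) and without Control replicate 2, TQ replicate 2, Combi replicates 2 or 3, or SARB replicate 2. EPOR, the erythropoietin receptor (0.62), was lost against Control alone (0.26), with run as a block (0.53) and without Combi (0.49). EPOR was also lost without Control replicate 1, TQ replicate 2, 5-FU replicate 3 or SARB replicate 2.

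Among 39 interleukin and JAK-STAT genes 9 were called higher and 1 lower, beside 13.2% and 5.48% over all 730 genes. Against Control alone 5 were called higher and none lower, where 70 and 98 of the 730 were. SOCS1, a feedback inhibitor of JAK kinases, had 27.7, 40.8 and 63.9 in Control and 51.4, 53.6 and 49.5 in TQ against 117, 110.4 and 132 with 5-FU alone, 111, 123 and 108 with Combi and 81.0, 90.3 and 122 with SARB (log2 fold change 1.21, standard error 0.15, adjusted p = 1.21e-06). No sample with 5-FU was as low as the highest Control. IL12A (0.99) and IL1RAP, a coreceptor for interleukin 1 (1.04), were likewise separated, but IL1RAP was not called against Control alone (0.67). IL11 (1.47) lay at 8.86 to 35.3 with 5-FU and 1.71 to 13.8 without, close to the negative probes, and was not called within run 1 (1.28) or against Control alone. Of 15 NF-kB and TNF genes 3 were called, all higher, a count not far from the share over all genes. They were RELA (0.81), TNFAIP3 (0.66) and IRAK2 (0.66), and the 5-FU and SARB groups on their own had none. IRAK2 was not called against Control alone (0.43). RELA, the p65 subunit, was 268, 503 and 488 in the 3 Combi samples and 189, 259 and 203 in SARB, and fell short of a call within run 1 (0.45). TNFAIP3 was not called against TQ alone (0.23), within run 1 (0.53), without Combi (0.51) or in the fit with a thymoquinone term (0.53), and was also lost without Control replicate 2 or TQ replicate 2.

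AP-1 and immediate-early genes split, with 5 of 18 higher and 2 lower, beside 13.2% and 5.48% over all genes. JUN, the core subunit of AP-1, stood at 43.2, 62.0 and 52.1 in Control and 66.1, 59.2 and 59.7 in TQ. It was 100.1, 118 and 145 with 5-FU alone, 157, 192 and 181 with Combi and 102, 171 and 122 with SARB (log2 fold change 1.31, standard error 0.14, adjusted p = 1.31e-07), with no overlap. DUSP5, a phosphatase that switches off nuclear ERK, was 1200.4 ± 152 in Control and 3025 ± 74.7 in TQ, and 4774 ± 117 with 5-FU alone, 3701 ± 153 with Combi and 5143 ± 432 with SARB (SD, n = 3). Most of the DUSP5 difference from Control was already present with TQ, and against TQ alone its 0.57 was under the fold limit. DUSP8, a phosphatase of stress kinases, had 0.93. FOS went against JUN and is described with the differences among treatments.

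Developmental pathways were called at shares not far from those of all 730 genes (13.2% higher and 5.48% lower). Of 23 Notch and hedgehog genes 4 were higher and none lower, namely NOTCH3 (1.49), NOTCH1 (1.08) and their ligands JAG1 (0.81) and JAG2 (0.67). Neither ligand was called against Control alone (0.55 and 0.46). NOTCH1 was separated, with 129.7, 77.1 and 104 in Control, 157, 138 and 136 in TQ, 371, 337 and 339 with 5-FU alone, 203, 189 and 199 with Combi and 286, 287 and 174 with SARB. The Notch list had 2 higher and 3 lower calls against Control alone and 5 and none against TQ alone. Of 40 WNT genes 4 were higher and 2 lower, but 2 were higher and 9 lower against Control alone, with a median of -0.44, and 10 were higher and 1 lower against TQ alone, with a median of 0.56. WNT7B, a secreted ligand, stood at 24.2, 49.9 and 26.9 in Control and 41.6, 29.6 and 35.8 in TQ against 94.0, 119.7 and 103 with 5-FU alone, 77.3, 115 and 105 with Combi and 93.5, 131 and 107 with SARB (log2 fold change 1.62, standard error 0.17, adjusted p = 1.01e-07). The antagonist DKK1 (0.82) was higher too, while AXIN2, a scaffold of beta-catenin destruction and itself a target of the pathway, was lower. AXIN2 had 86.2 to 124 scaled counts without 5-FU and 38.6 to 71.9 with it (log2 fold change -0.91, standard error 0.14, adjusted p = 2.05e-05). WNT7A (1.00) was lost within run 1 (0.84) and against Control alone.

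Of 34 TGF-beta, activin and BMP genes 4 were higher and 3 lower, with 3 and 3 against Control alone and 7 and 1 against TQ alone. TGFB1, the founding ligand of the family, was 171 to 282 without 5-FU and 315 to 582 with it (log2 fold change 0.88, standard error 0.12, adjusted p = 2.4e-06). BMP4, a ligand of the other branch, was 848 to 1176 without and 452 to 847 with 5-FU (log2 fold change -0.75, standard error 0.09, adjusted p = 4.61e-07). Both were separated, in opposite directions. TGFB3 (0.97) and the BMP antagonist NOG (0.94) had under 50 scaled counts in every sample, and neither was called against Control alone, nor NOG within run 1. Of 28 PI3K, AKT and mTOR genes 3 were higher and 1 lower, and of 34 RAS, RAF and MAPK kinases and their regulators 3 were higher and 1 lower, both shares close to or under those over all genes. Against Control alone the former list had 3 higher and 6 lower and the latter 3 and 5, and against TQ alone they had 7 and 1 and 4 and 1. PIK3R2, a regulatory subunit of PI3-kinase, had 0.84, the kinase STK11 0.64 and the transcription factor FOXO4 0.59. The last was lost after TMM normalization (0.55) and when any of 6 samples was left out, Control replicate 1, TQ replicate 1, 5-FU replicate 2, Combi replicate 1, SARB replicate 1 or SARB replicate 2. MAP3K12, a kinase upstream of JNK, had 1.10, RASA4, a RAS inhibitor, 0.91, and the adaptor SHC1 0.73. STK11 was not called within run 1 (0.52) or with run as a block, and RASA4 was not called against Control alone.

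The lowest fold changes of the panel belonged to a pair of replication-dependent histone genes. Of 6 histone genes measured 3 were called lower and none higher, beside 5.48% and 13.2% over all genes, with a median of -0.49. HIST1H3H stood at 32812, 25976 and 18150.0 scaled counts in Control and 23424, 21537 and 21102 in TQ. It was 2601, 2351 and 2584 with 5-FU alone, 2094, 2428 and 2221 with Combi and 2769, 2293 and 1323 with SARB, a 10.4-fold difference (log2 fold change -3.38, standard error 0.13, adjusted p = 4.31e-15). The samples with 5-FU ranged over 1323 to 2769 and the others over 18150.0 to 32812, a wide gap. HIST1H3B had 19403, 20056 and 14772 in Control and 11171, 9823 and 10254 in TQ against 2553, 2521 and 3115 with 5-FU alone, 2982, 4204 and 3799 with Combi and 3317, 3593 and 1473 with SARB (log2 fold change -2.18, standard error 0.14, adjusted p = 2.89e-11). HIST1H3B was also lower in TQ than in Control (-0.80, adjusted p = 0.0098), where the median of all genes was -0.47. In TQ it still stood well above the treatments with 5-FU. Both genes encode the same histone H3 protein as several near-identical copies, so how much of a count came from each copy is uncertain.

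The other 4 members of the histone list behaved differently. H2AFX, whose protein is phosphorylated around DNA breaks, was 1067 ± 16.4 in Control, 532 ± 133 in TQ, 562 ± 98.2 with 5-FU alone, 371 ± 66.7 with Combi and 485 ± 213 with SARB (SD, n = 3). Its pooled call (-0.69) was lost against TQ alone (-0.18) and within run 1 (-0.53). H3F3A and H3F3C, which encode variants made outside S phase and share near-identical copies, had -0.26 and -0.29, under the fold limit. HIST1H3G lay near the negative probes at 12.3 to 30.3 without and 6.89 to 33.4 with 5-FU and was not called.

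The cyclin genes CCNB1 and CCNA2 were called lower as well. CCNB1, the B-type cyclin that drives entry into mitosis, stood at 4270.1, 4383 and 3769.8 in Control and 3677, 3656 and 3704 in TQ, and at 1785, 1715 and 1673 with 5-FU alone, 1454, 1331 and 1229 with Combi and 1385, 1248 and 1178 with SARB (log2 fold change -1.45, standard error 0.07, adjusted p = 6.94e-14). CCNA2, the A-type cyclin of S and G2 phase, had 2289.9, 2916 and 2316 in Control, 1985, 2141 and 2021 in TQ, 1412, 1348 and 1376 with 5-FU alone, 1521, 1195 and 1182 with Combi and 1210.0, 1243 and 1421 with SARB (log2 fold change -0.78, standard error 0.08, adjusted p = 4.76e-08). Both were separated in all samples. The 250 bases before the transcription starts of these histone and cyclin genes are shown because they are cell-cycle genes with large or even differences and because promoters of such genes are known for CCAAT boxes. The sequences are those of RefSeq on GRCh38.p14, written in the direction of transcription in lower case, with capitals for the letters CCAAT or, for a match on the opposite strand, ATTGG. They lie at chr6:27809801-27810050 on the plus strand for HIST1H3H (now H3C10), chr6:26032100-26032349 on the minus strand for HIST1H3B (now H3C2), chr5:69166900-69167149 on the plus strand for CCNB1 and chr4:121823884-121824133 on the minus strand for CCNA2.
HIST1H3H: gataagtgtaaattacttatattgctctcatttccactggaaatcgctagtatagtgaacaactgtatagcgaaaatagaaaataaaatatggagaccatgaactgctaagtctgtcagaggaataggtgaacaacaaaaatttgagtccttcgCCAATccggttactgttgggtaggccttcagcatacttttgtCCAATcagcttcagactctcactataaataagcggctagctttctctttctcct
HIST1H3B: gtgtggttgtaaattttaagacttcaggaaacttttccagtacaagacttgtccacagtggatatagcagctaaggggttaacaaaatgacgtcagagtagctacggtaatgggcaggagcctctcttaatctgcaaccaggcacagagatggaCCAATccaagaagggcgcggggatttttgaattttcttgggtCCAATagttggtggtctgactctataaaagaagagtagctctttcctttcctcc
CCNB1: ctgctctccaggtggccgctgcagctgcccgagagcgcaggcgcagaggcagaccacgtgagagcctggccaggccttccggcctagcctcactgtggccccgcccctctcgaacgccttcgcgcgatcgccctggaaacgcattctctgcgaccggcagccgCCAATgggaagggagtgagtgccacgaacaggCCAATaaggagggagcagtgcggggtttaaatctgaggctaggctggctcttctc
CCNA2: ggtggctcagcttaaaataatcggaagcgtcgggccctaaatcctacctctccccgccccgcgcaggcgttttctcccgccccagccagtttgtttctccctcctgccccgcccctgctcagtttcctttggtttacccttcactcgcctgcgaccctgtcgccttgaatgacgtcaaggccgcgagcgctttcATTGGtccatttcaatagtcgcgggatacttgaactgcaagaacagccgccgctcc

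HIST1H3H and HIST1H3B both held CCAAT starting 96 and 54 bases before the start, and CCNB1 held it at 87 and 55 bases. CCNA2 had a single match, on the opposite strand, at 56 bases. The letters are short and common. In windows from 250 bases before to 50 bases after the start they occurred on either strand in 35.7% of 27305 RefSeq promoters and in 37.3% of the 547 panel genes that could be matched to a promoter. They occurred in 18 of 31 matched genes called lower (58.1%) and 22 of 71 called higher (31%). A p53 response element, taken as 2 decamers at most 13 bases apart with up to 2 mismatches outside their core, was found in 1.47% of RefSeq promoters and in none of the 71 matched genes called higher, which describes these windows only.

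Of 18 G2/M and cohesin genes 6 were called lower and none higher, beside 5.48% and 13.2% over all genes, with a median of -0.36. The count was 7 against Control alone and 3 against TQ alone. CDC25C, the phosphatase that activates the mitotic kinase, was 211 ± 6.11 in Control, 122 ± 12.4 in TQ, 92.6 ± 14.9 with 5-FU alone, 107 ± 15.4 with Combi and 94.4 ± 15.3 with SARB. It was called (-0.71) although it was lower by a like amount in TQ than in Control (-0.79). The call was lost against TQ alone (-0.31). TTK, a kinase of the spindle checkpoint, was 1004 to 1466 without and 582 to 833 with 5-FU (log2 fold change -0.69, standard error 0.08, adjusted p = 2.16e-07). Against TQ alone TTK was not called (-0.50). The cohesin genes SMC1A (-0.75) and RAD21 (-0.67) were called too, as was PTTG2 (-0.60), whose probe may also capture its near-identical relative PTTG1. For G1/S genes the calls were mixed, 2 of 25 higher and 3 lower, beside 13.2% and 5.48% over all genes. CCND3, a D-type cyclin, was higher (0.82), as was CCNE2, an E-type cyclin (0.64), while CDKN1B, the inhibitor p27, was lower (-0.75), so CDKN1A and CDKN1B went in opposite directions. MYC, a driver of growth and proliferation, had 1818, 1503 and 1879 in Control, 2597, 2485 and 2307 in TQ, 1513, 1398 and 1394 with 5-FU alone, 1302, 1036 and 1149.9 with Combi and 1433, 1077 and 1161 with SARB. Its call (-0.70) was lost against Control alone (-0.45).

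Replication and repair genes were called in both directions. Of 13 DNA replication genes 2 were lower and 2 higher, beside 5.48% and 13.2% over all genes, with 3 lower and none higher against Control alone. MCM5, a subunit of the replicative helicase, had 367, 405 and 385 in Control, 379, 448 and 321 in TQ, 219, 208 and 214 with 5-FU alone, 261, 197 and 226 with Combi and 210.2, 143 and 176 with SARB (log2 fold change -0.91, standard error 0.10, adjusted p = 1.31e-07). MCM7 of the same complex was 3443 to 4718 without and 2005 to 2784 with 5-FU (-0.73), also separated. Against TQ alone MCM7 was not called (-0.58). PCNA and POLD4, a small subunit of DNA polymerase delta (0.70), were the higher members, and neither was called against Control alone. Among 14 mismatch and excision repair genes 3 were higher and 1 lower, and against Control alone 1 was higher and 3 lower. ERCC6, which restarts repair at stalled transcription, was 92.4 to 137 without and 155 to 247 with 5-FU (log2 fold change 0.83, standard error 0.11, adjusted p = 3.32e-06). NTHL1, a glycosylase for oxidised pyrimidines, was 203 to 259 without and 107 to 162 with 5-FU (log2 fold change -0.79, standard error 0.10, adjusted p = 2.46e-06). These 2 repair genes were each separated, in opposite directions. Of 22 double-strand break and Fanconi anemia genes 1 was higher and 2 lower. The kinase gene ATM (0.69) was high in Combi at 105, 134 and 152 against 62.3, 62.5 and 65.3 in 5-FU. ATM was not called without Combi or against Control alone (0.55). UBE2T, the ubiquitin-conjugating enzyme of the Fanconi pathway, had -0.72.

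Genes of RNA handling and translation held some of the lower values. NPM1, the nucleolar protein of ribosome assembly, stood at 161, 144 and 126 in Control and 139.5, 121 and 167 in TQ against 57.4, 63.9 and 58.4 with 5-FU alone, 75.0, 41.6 and 38.9 with Combi and 54.0, 99.8 and 43.8 with SARB (log2 fold change -1.31, standard error 0.17, adjusted p = 2.02e-06). The groups did not overlap, although the replicates of Combi and SARB were further apart than those of the other groups. EIF4EBP1, a repressor of cap-dependent translation, was 805 to 1390.0 without and 342 to 733 with 5-FU (log2 fold change -0.94, standard error 0.12, adjusted p = 2.39e-06). Of 9 RNA polymerase II, splicing and nucleolar genes 3 were lower and 1 higher, beside 5.48% and 13.2% over all genes. FUBP1 (-0.88) and SRSF2 (-0.64) were highest in TQ and were not called against Control alone, and SRSF2 was also lost without Control replicate 1, TQ replicate 1 or SARB replicate 3. MED12, a subunit of the mediator complex (0.59), was at the fold limit. Its call was lost after TMM normalization and without Control replicates 1 or 2, 5-FU replicate 3, Combi replicate 3 or SARB replicate 2.

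Of 36 chromatin and DNA methylation genes 1 was higher and 3 lower, beside 13.2% and 5.48% over all genes. Against Control alone none was higher and 7 were lower, and against TQ alone 4 were higher and 3 lower. WHSC1, a methyltransferase of histone H3, was 849 to 1151 without and 415 to 805 with 5-FU (log2 fold change -0.75, standard error 0.11, adjusted p = 7.89e-06), with no overlap. SETD2, another such enzyme (-0.66), was high in TQ and not called against Control alone. SIRT4, a mitochondrial sirtuin (0.69), had low counts and was not called against Control alone or without Control replicate 1.

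A further set of calls was largely carried by the TQ group. Of 10 heat shock and stress genes 5 were called lower and none higher, beside 5.48% and 13.2% over all genes, with a median of -0.70. These 5 were HSPA1A, HSPA2, HSPA6, HSP90B1 and DDIT3. Against Control alone 1 gene of the list was called lower. Set one by one against the mean of Control and TQ, 5-FU had 5 of the 10 lower, Combi 2 and SARB 8. Over all 730 genes these shares were 4.38%, 5.75% and 8.63%, and the median with SARB was -0.15. HSPA1A, an inducible chaperone of the HSP70 family, had 27.7, 21.2 and 30.3 in Control and 416, 253 and 329 in TQ, and 26.9, 45.2 and 44.5 with 5-FU alone, 17.0, 33.2 and 36.5 with Combi and 28.0, 41.8 and 4.92 with SARB. Its pooled log2 fold change of -1.67 became -3.49 against TQ and 0.18 against Control, so TQ stood apart and the samples with 5-FU overlapped with Control. The near-identical copy HSPA1B leaves the source of these counts uncertain. HSPA2 (-0.83, and 0.23 against Control) and HSPA6 (-1.32, and -0.51 against Control) were likewise highest in TQ, at lower counts. DDIT3, a transcription factor of the unfolded protein response, was 1017, 1048 and 618 in Control, 1719, 1622 and 1328 in TQ, 488, 434 and 448 with 5-FU alone, 1042, 721 and 819.9 with Combi and 694, 585 and 467 with SARB. Its value was -0.95 pooled and -0.55 against Control, where it was not called. FOS, described below, was also carried by TQ, with 0.44 against Control alone.

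**Figure D3:**
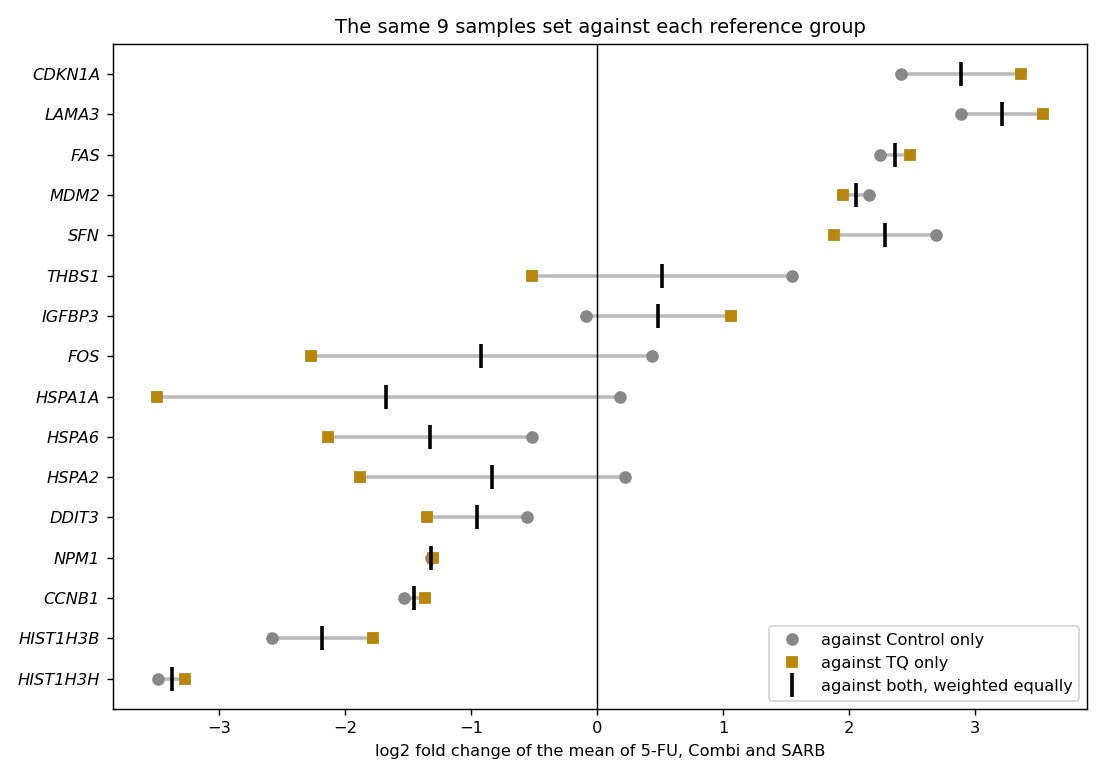
Log2 fold change of the mean of 5-FU, Combi and SARB (x axis) for 16 genes against Control only (circle), TQ only (square) and both weighted equally (bar). CDKN1A, LAMA3, FAS, MDM2 and SFN keep to the right and NPM1, CCNB1 and both histones to the left against either group, while HSPA1A, HSPA2, FOS, THBS1 and IGFBP3 lie on opposite sides of 0.

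Of the 96 genes called higher, 9 were also called higher in TQ against Control and 22 were called lower there. Of the 40 called lower, 8 were also lower in TQ and 8 were higher. In 84 of the 96 and 30 of the 40 all 3 treatment means lay beyond both Control and TQ. The strictest reading asked that each treatment be called against Control and against TQ, in 6 tests that share samples. It left 34 genes higher and 7 lower, the latter being HIST1H3H, HIST1H3B, CCNB1, NPM1, MCM5, AXIN2 and NTHL1. The higher set included LAMA3, CDKN1A, FAS, SFN, LAMB3, MDM2, NGFR, PLAU, DDB2, BAX, JUN and WNT7B.

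The 3 treatments were then set one by one against the mean of Control and TQ, which serves as the common reference and makes the comparisons dependent. With 5-FU alone 87 genes were higher (11.9% of the 730) and 32 lower (4.38%). With Combi 140 were higher (19.2%) and 42 lower (5.75%), and with SARB 71 were higher (9.73%) and 63 lower (8.63%). Over all genes the median was 0.04 with 5-FU, 0.24 with Combi and -0.15 with SARB, and TMM normalization brought the latter pair to 0.11 and -0.05. After it Combi had 113 genes higher against 68 lower and SARB 107 against 50, so the balance of Combi and SARB depends on the scaling. In all 3 treatments 54 genes were called higher (7.4%) and 16 lower (2.19%), and all of these belonged to the pooled calls. A further 22 of the 96 were called in 2 treatments and 20 in 1, while of the 40 lower genes 22 were called in 2, 1 in 1 and 1 in none.

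The p53-induced list gave 14 higher calls of 16 in 5-FU, 16 in Combi and 13 in SARB. Per treatment, the log2 fold changes of CDKN1A were 2.65 with 5-FU alone, 3.16 with Combi and 2.86 with SARB, and those of MDM2 were 1.95, 2.19 and 2.04 in the same order. HIST1H3H had -3.24, -3.40 and -3.48, and CCNB1 -1.18, -1.55 and -1.62. Laminin, integrin and matrix genes were called higher in 10 of 42 cases in 5-FU, 15 in Combi and 10 in SARB. G2/M and cohesin genes were lower in 4 of 18 cases in 5-FU, 6 in Combi and 6 in SARB. Over all 730 genes 11.9%, 19.2% and 9.73% were higher and 4.38%, 5.75% and 8.63% lower in the same order. Members of these lists were thus called in each treatment, with the lower 5-FU dose of the 5-FU group included. The treatments were set against the same 6 reference samples, so the counts are not independent and serve as a description.

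A test of any difference among 5-FU, Combi and SARB was passed by 119 genes (16.3%), of which 84 were not among the pooled calls. In housekeeping-scaled counts Combi had the highest mean in 84 of the 119, 5-FU in 34 and SARB in 1. This tally goes with the scaling, under which the median of all genes was 0.24 with Combi and -0.15 with SARB. Against 5-FU, Combi had 56 genes higher and 30 lower, and TMM normalization changed these to 41 and 46. SARB and 5-FU, which shared run 1 but not the dose, were called different in 9 genes (1.23%), all lower in SARB. These were ITGB4 (-0.86), PRDM1 (-0.79), CDK2 (-0.74), ITGB8 (-0.69), IDH2 (-0.68), DUSP6 (-0.67), LAMA3 (-0.63), NGFR (-0.63) and BMP4 (-0.61), and none was called after TMM normalization. Combi and SARB, given at the same 35 µM but in different runs, differed more, with 7 genes higher (0.959%) and 82 lower (11.2%) in SARB, a split that TMM normalization changed to 39 and 54. FOS led the genes lower in SARB. Combi shared no run with 5-FU or SARB, so run and treatment cannot be told apart for Combi replicates 2 and 3, which had a run to themselves. With run as a block 8 of the 119 genes were still called, which were FOS, LAMA3, NGFR, ITGB4, ITGB8, DUSP6, IDH2 and BMP4. All of these except FOS were also called between SARB and 5-FU, a comparison within run 1. Combi replicates 2 and 3, alone in their run, add nothing to the level of Combi in that fit. Without the block, the 119 genes became 70 when Combi replicate 3 was left out.

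FOS, the other core subunit of AP-1, differed most among the treatments. It stood at 133, 141 and 104 in Control and 749, 821 and 894 in TQ, and at 80.6, 102 and 109.8 with 5-FU alone, 638, 463 and 752 with Combi and 77.1, 105 and 71.4 with SARB. Combi was thus close to TQ, while SARB, which also carries thymoquinone, was close to 5-FU and Control. Against the mean of Control and TQ the log2 fold changes were -1.73 with 5-FU alone, 0.94 with Combi and -1.96 with SARB, called in opposite directions, and the difference among treatments was 2.90 (adjusted p = 6.82e-11). PHF6, a chromatin-binding protein, was the other gene called in opposite directions. It had 251, 509 and 545 in Control, 129.8, 126 and 114 in TQ, 119.7, 142 and 202 with 5-FU alone, 374, 450.0 and 427 with Combi and 161, 213 and 209.6 with SARB. The Control samples of run 2 lay near Combi and that of run 1 well below them, and PHF6 was not called with run as a block.

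IL8, a chemokine, was 24.4 ± 15.8 in Control, 64.6 ± 5.77 in TQ, 42.0 ± 8.02 with 5-FU alone, 155 ± 15.3 with Combi and 66.1 ± 25.2 with SARB (SD, n = 3). NOTCH3 was 89.5 ± 23.9 in Control, 30.5 ± 1.69 in TQ, 119 ± 11.2 with 5-FU alone, 254 ± 39.2 with Combi and 103 ± 14.4 with SARB. In both genes Combi exceeded all other groups without overlap. PLAT, the tissue plasminogen activator, was 256, 233 and 235 in Combi against 94.0, 112 and 125 in 5-FU and 80.0, 105 and 60.5 in SARB, with Control spread over 53.6, 95.2 and 165. HDAC11, a histone deacetylase, had the same order, with 165, 207 and 237 in Combi, 67.2, 85.1 and 83.4 in 5-FU, 67.5, 95.7 and 65.0 in SARB and 70.9, 163 and 210.1 in Control. In PLAT and HDAC11 the Control samples of run 2 again lay above that of run 1. FGFR4, a fibroblast growth factor receptor, was 132, 262 and 244 in Combi and 71.9 to 262 over all 9 samples. IDH1, the cytosolic isocitrate dehydrogenase, was 115 ± 14.3 with 5-FU alone, 284 ± 27.0 with Combi and 127 ± 15.4 with SARB against 369 ± 133 in Control and 212 ± 7.21 in TQ, so only Combi stayed within the range of the references. The part of run in these differences was not tested beyond the block.

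**Figure D4:**
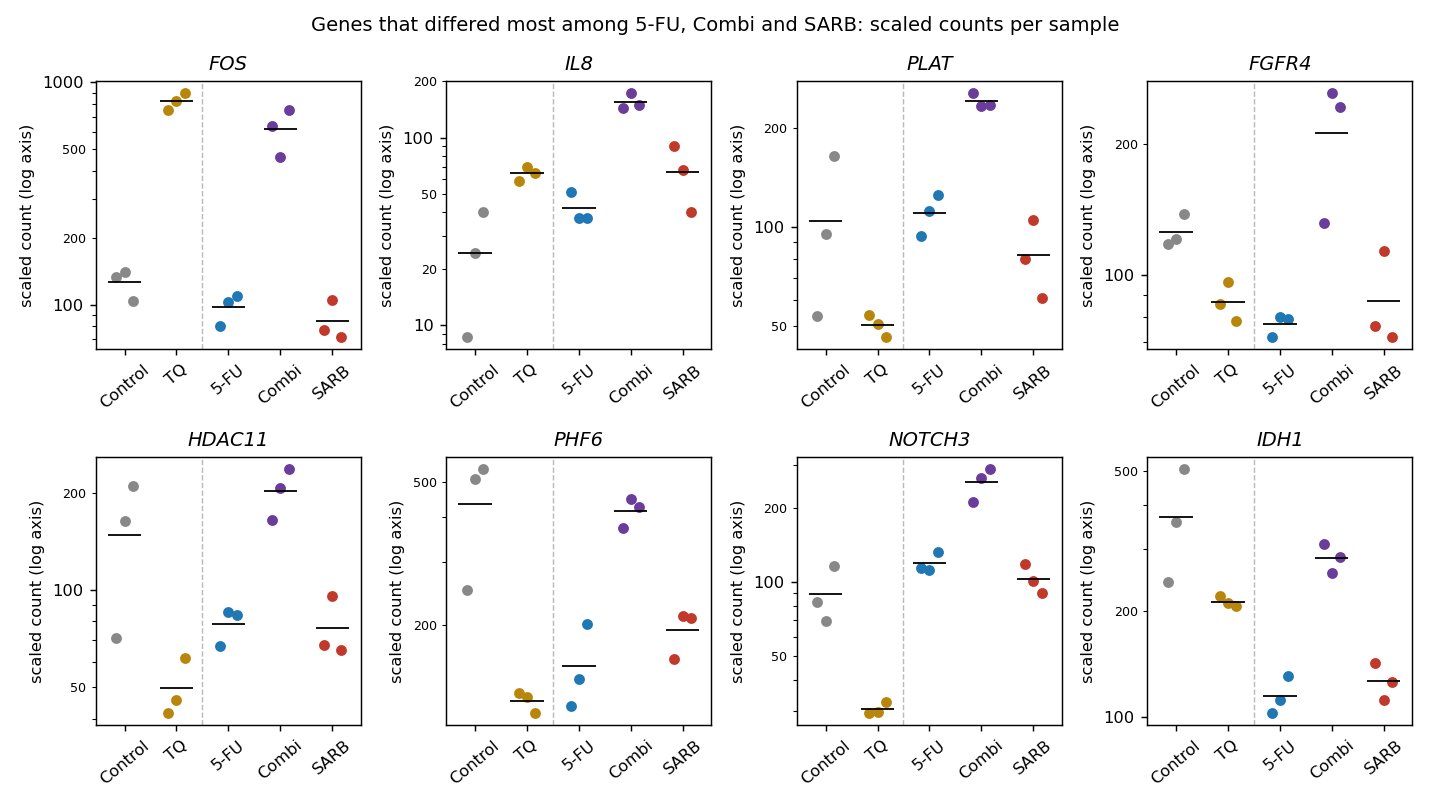
Scaled counts (log y axis, each panel on its own range) of 8 genes, as dots for single samples and lines for group means of 3. They are the genes with the largest difference among 5-FU, Combi and SARB at a mean of at least 50 scaled counts. Combi has the highest treatment mean in each panel, and for FOS it lies near TQ at 618 ± 146 against 821 ± 72.2 while SARB is at 84.6 ± 18.1 (SD, n = 3).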

How the data were processed

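HCT116 cells were profiled in 15 samples with the nCounter PanCancer Pathways Panel, from 50 ng of total RNA each per the study's methods. The authors deposited raw counts per probe, which are the values analysed here, and normalized values (a signal scaled in nSolver 3.0 to the housekeeping genes), which served for alternatives. A table of the authors' fold changes and p-values was not used. The members, gene lists and tests were chosen with earlier results of these data known.

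Counts of the 730 endogenous genes were fitted in edgeR 4.0.16 (R 4.3.3) with glmQLFit and glmQLFTest over all 5 groups, with library sizes set to the geometric mean of the 40 housekeeping genes. The pooled contrast was the mean of 5-FU, Combi and SARB minus the mean of Control and TQ. P-values were adjusted over all 730 genes by Benjamini-Hochberg, and a gene was called where the adjusted p did not exceed 0.05 and the groups differed by 1.5-fold or more, which is the study's limit. The difference among treatments was an F test with 2 degrees of freedom. Every adjusted p in the text is from these tests. Standard errors are the log2 fold change divided by the root of F. A gene was above background over the negative probes' mean plus 2 SD. Of the 730 genes, 216 had a mean raw count under 20, which limits their precision, and 405 were above background in all samples.

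Genes were named by 4 rules: the 10 highest and 10 lowest called genes without overlap, up to 4 called genes per list with all measured p53-induced and histone genes, the 8 largest differences among treatments at a mean of at least 50 scaled counts, and genes called in opposite directions. ITGA2, ITGA6, RAD21, PTTG2 and CCNE2 and the genes called between SARB and 5-FU were named after their values were seen. Alternatives used TMM, DESeq2 1.42.0, limma 3.58.1, background subtraction, a minimum mean count, run or replicate number as a block, run 1 alone, an additive thymoquinone term, and each group or sample left out. The script was tested on simulated data. Some genes that meet these rules are not reported here. Promoters came from RefSeq (GRCh38.p14) by transcript accession or symbol, and 183 genes without a match were not used there.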

Additional observations from a re-analysis of the deposited data

Results flagged for a closer look

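The test of a difference among 5-FU, Combi and SARB was passed by 119 genes. In housekeeping-scaled counts Combi had the highest mean in 84 of them and 5-FU in 34. TMM normalization changed Combi against 5-FU from 56 genes higher and 30 lower to 41 and 46. Given here are the 8 of the 119 genes with the largest gap at a mean of at least 50 scaled counts. Combi was highest in each of these 8. For FOS, which encodes a core subunit of AP-1, the gap between the highest and the lowest treatment was 2.90 on the log2 scale (adjusted p = 6.82e-11, edgeR), and it was called again with run as a block. IL8, a chemokine, had a gap of 1.88 (adjusted p = 0.000155) and PLAT, the tissue plasminogen activator, of 1.60 (adjusted p = 0.000131). The gap was 1.48 for the receptor FGFR4 (adjusted p = 4.41e-05), 1.46 for the deacetylase HDAC11 (adjusted p = 0.000210) and 1.44 for PHF6 (adjusted p = 0.000127). NOTCH3 had 1.32 (adjusted p = 1.61e-05) and IDH1 1.30 (adjusted p = 6.84e-05). Of the 8 genes only FOS was called with run as a block. In PHF6, HDAC11, PLAT and IDH1 the Control samples of run 2 also lay above that of run 1. The part of run in these gaps was not tested further.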

How the results depend on the processing

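The pooled counts of 96 higher and 40 lower genes were 90 to 103 and 36 to 47 when single samples were left out, and those called in all 3 treatments 47 to 59 and 14 to 17. Other settings left the higher count within 1.5 times its value, while the lower count was 61 with limma on the deposited values and 98 without the TQ group. The 119 genes that differed among treatments became 70 with limma, 8 with run as a block and 70 to 170 with single samples left out. The 183 genes between TQ and Control became 39 with run as a block, 28 within run 1 and 86 to 234 with single samples left out. Of 85 named genes that were called, 44 kept call and direction under all 30 settings. Direction turned without the TQ group for FOS (0.44), HSPA1A (0.18), HSPA2 (0.23), IGFBP3 (-0.087), FGFR4 (-0.16), HDAC11 (-0.49) and PHF6 (-0.91), and without the Control group for THBS1 (-0.52) and H3F3A (0.10). Without the Combi group it turned for FGFR4 (-0.38), HDAC11 (-0.16), PHF6 (-0.42) and HIST1H3G (0.060). FGFR4 was -0.15 with run as a block and -0.33 within run 1. HIST1H3G, at -0.07, was 0.068 after background subtraction, 0.018 with limma, 0.10 with run as a block, 0.24 within run 1 and -0.27 to 0.10 with single samples left out. PHF6, near 0, was -0.013 with TMM, -0.015 with limma, -0.011 with run as a block, -0.045 with DESeq2, -0.052 after background subtraction, -0.024 within run 1, -0.12 with 2 groups fitted and -0.14 to 0.10 with single samples left out. The cause was not tested. Replicate numbers did not pair the samples (9 of 30 same-number pairs had r over 0.1, and 3 of 15 samples correlated best with their own number). With replicate number as a block 96 genes were higher and 39 lower, 101 differed among treatments and 162 differed between TQ and Control. Low counts limit 216 genes with a mean raw count under 20.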

Other observations

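Of the 96 genes called higher, 24 belonged to none of the gene lists. Among those separated in all samples were RAC2, a small GTPase known from blood cells, at 1.22, the cytokine CLCF1 at 1.30, the actin crosslinker FLNC at 1.20, the acetyltransferase KAT2B at 1.13, the growth factor PDGFA at 0.96 and the transcriptional repressor PRDM1 at 1.63. They were chosen after their values were seen. Of the 40 genes called lower, 4 were in no list, among them NASP, a chaperone of histone H1 and H3, at -0.98 and KITLG, the ligand of the KIT receptor, at -0.94, both called in each of the 3 treatments.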
